A study of Mus musculus with 2 samples.

Results

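Genes that mark stages of B cell maturation were followed in B cells of mouse lymph nodes, with and without a conditional knockout of Rpa1. The 10 genes, of 32285 in the count tables, were listed by name: Cr2, Fcer2a, Ighd, Ighm, Cd93, Tnfrsf13c, Tnfrsf13b, Cd55, Ebf1 and Cd9. The data were droplet-based single-cell RNA counts, in which each transcript 3′ end carries a unique molecular identifier (UMI). They covered a library from wild-type mice (WT) and a library from RPA1 conditional knockout mice (CKO), both of C57BL/6 background. Each genotype had 1 library, with 12769 barcodes and 84813609 UMIs in WT and 13754 barcodes and 76200586 UMIs in CKO. The Cre driver, the deleted exons, the cell type of the deletion, the age and the number of mice are not given in the sources used here. With a single library per genotype, genotype and library cannot be told apart and no p-value was computed. Intervals in brackets are exact, at a level of 95%, and cover counting error alone; variation between animals or captures is not in them.

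B cells were cells with at least 2 UMIs of Cd79a, the signalling chain of the B cell receptor, and 0 UMIs of Cd3d, Cd3e and Cd3g, the chains of the T cell receptor complex. This gate held 2605 of 12463 WT cells (20.9%) and 7414 of 13316 CKO cells (55.7%). Every gated cell was thinned at random to 2000 UMIs, so that the libraries were compared at equal depth, and 38 WT and 122 CKO cells with fewer UMIs were left out. The 2567 WT and 7292 CKO cells that remained had raw medians of 4049 and 3936.5 UMIs. Igkc, the κ light chain constant gene, was found in 96.6% of WT and 96.7% of CKO gated cells, and Ms4a1, which encodes CD20, in 83.9% and 86.5%. Trac, Trbc1 and Trbc2, constant genes of the T cell receptor that the gate did not use, together stood at 35.8 UMIs per 1000000 (CPM) in WT and at 21.7 in CKO. The natural killer cell markers together stood at 4.48 and 33.7 CPM, the myeloid markers at 22.0 and 14.5 CPM, and all 6 stromal and follicular dendritic cell markers at 0 in both. High doublet scores were found in 0.429% of WT and 5.61% of CKO gated cells; the part that doublets or natural killer transcripts have in the differences below was not tested beyond leaving such cells out. The libraries shared 56 barcodes, of which 10 WT and 28 CKO cells were in the gate. Rpa1 itself was at 40.1 CPM in the WT and 36.6 CPM in the CKO gated B cells, a CKO over WT ratio of 0.913 (0.776 to 1.08). These counts come from transcript ends, which a deletion elsewhere in the gene need not remove, so they check neither genotype nor deletion.

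Immature B cells leave the bone marrow with IgM on their surface and the receptor encoded by Cd93, then lose Cd93 and gain IgD and CD23 as they mature into recirculating follicular cells. Ighm and Ighd are made from the same primary transcript by alternative splicing and polyadenylation. Survival of mature cells depends on the cytokine BAFF acting on its receptor BAFF-R, the product of Tnfrsf13c, while marginal zone and B-1 cells differ from follicular cells by low CD23 and by markers such as CD21 or CD9.

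The 10 members lay on 7 chromosomes of build GRCm38. Cr2, which encodes the complement receptors CD21 and CD35, lies on chromosome 1 from 195136811 to 195176716 (minus strand), and Cd55, which encodes a brake on complement activation, on the same chromosome from 130439027 to 130462744 (minus strand). Ighd (113406604 to 113416324) and Ighm (113418558 to 113422730) are neighbours on the minus strand of chromosome 12. Fcer2a, which encodes CD23, lies on chromosome 8 from 3681737 to 3694175, Cd93 on chromosome 2 from 148436640 to 148443563 and Cd9 on chromosome 6 from 125460266 to 125494791, all on the minus strand. Tnfrsf13c lies on chromosome 15 (82221743 to 82224369, minus strand). Tnfrsf13b, which encodes TACI, another receptor for BAFF, lies on chromosome 11 (61126755 to 61149372, plus strand), as does Ebf1, which encodes a transcription factor of the B lineage (44617317 to 45008091, plus strand). RefSeq promoters of build GRCm38.p6 were matched for 7 members, with 10 start sites. The 250 bases before the start are shown for Cr2, Tnfrsf13c and Cd55. Cr2 had the highest CKO over WT ratio of the well-counted members. Tnfrsf13c, the BAFF receptor gene, was found together with Cr2 more often than by the product of the shares. This went beyond the counting interval in CKO, though not in WT. Cd55 was the member with the lowest ratio of cells without Ighd and Fcer2a over the other gated B cells. Capitals mark matches, on either strand, to CAGGTG, an E-box bound by E2A proteins, or to CCCNNGGG, the core of the EBF1 site.
Cr2 (chr1:195176720-195176969, minus strand): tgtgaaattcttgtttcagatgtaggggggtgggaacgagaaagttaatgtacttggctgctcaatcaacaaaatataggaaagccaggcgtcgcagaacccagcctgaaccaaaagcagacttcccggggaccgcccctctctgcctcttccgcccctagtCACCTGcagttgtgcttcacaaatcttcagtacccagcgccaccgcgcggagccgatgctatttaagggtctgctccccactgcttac
Tnfrsf13c (chr15:82224381-82224630, minus strand): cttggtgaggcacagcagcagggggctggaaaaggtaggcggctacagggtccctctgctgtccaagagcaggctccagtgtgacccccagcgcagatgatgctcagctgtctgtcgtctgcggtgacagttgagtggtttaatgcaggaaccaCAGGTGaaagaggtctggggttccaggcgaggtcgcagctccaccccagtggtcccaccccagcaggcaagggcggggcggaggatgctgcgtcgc
Cd55 (chr1:130462745-130462994, minus strand): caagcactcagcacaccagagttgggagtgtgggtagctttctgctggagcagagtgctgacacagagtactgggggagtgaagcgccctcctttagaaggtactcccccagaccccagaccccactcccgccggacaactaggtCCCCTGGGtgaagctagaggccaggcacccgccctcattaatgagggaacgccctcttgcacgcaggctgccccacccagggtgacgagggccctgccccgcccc
CAGGTG stood in 4 of the 10 member promoters, of 4 genes: Cr2 (88 bases upstream), Tnfrsf13c (96 bases), Fcer2a (99 and 244 bases) and Cd9 (73 bases). It stood in 20.2% of all 32851 promoters of that length. CCCNNGGG stood in the Cd55 promoter (105 bases upstream) and in 13.7% of all promoters. The longer EBF1 consensus site, which contains CCCNNGGG, stood in none of the 10 member promoters and in 0.904% of all. The 3 motifs were chosen after the expression values had been seen, and a match is a description of the letters only.

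Among the 8 members whose mean level reached 20 CPM, Cr2 had the highest CKO over WT ratio and Ighd the lowest, and 0 of the 8 differed by 1.5-fold. Of the 5450 genes at that floor 0.752% did, 0.44% higher and 0.312% lower in CKO. The members' median log2 ratio was 0.03, against 0.02 for all genes. The counting interval excluded equality for 5 of the 8 members and for 18.1% of all genes. These shares cannot be compared, because the interval narrows as UMIs rise. The lowest level among the 8 members was 210.2 CPM (Cr2 in WT), whereas the 5450 genes start at a mean of 20 CPM. All 8 log2 ratios lay between -0.23 and 0.32.

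**Figure D1:**
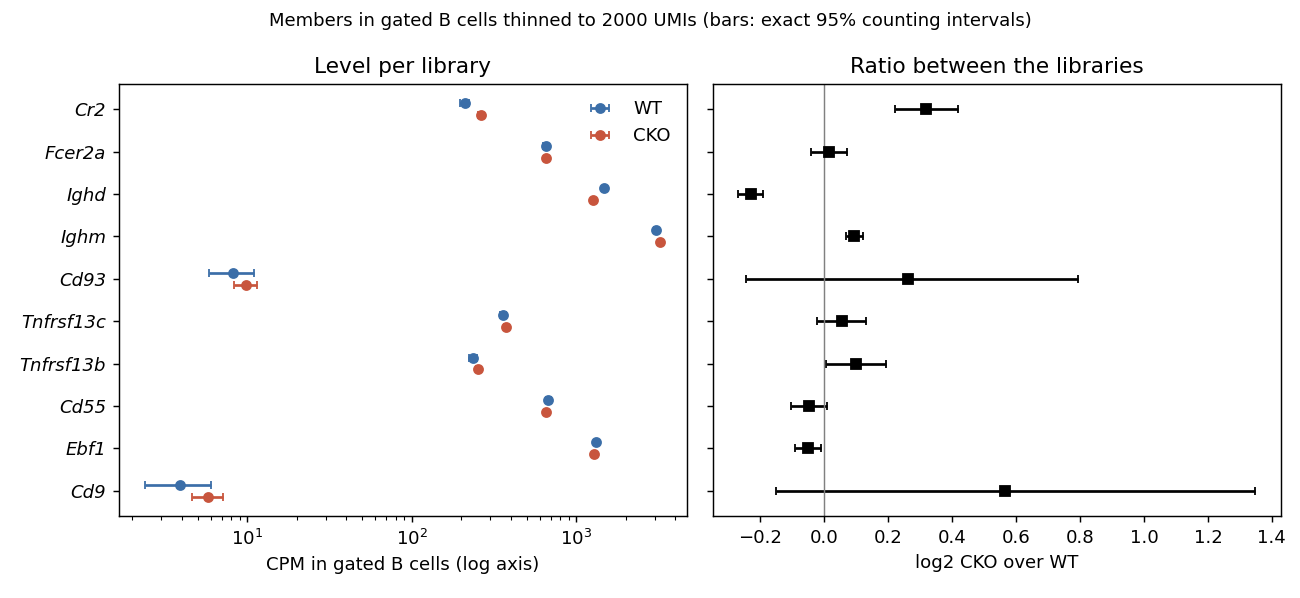
Level of each member in gated B cells of the WT (blue) and CKO (red) library in CPM on a log axis (left), and the log2 CKO over WT ratio (right). Bars are exact 95% counting intervals, and n is 2567 WT and 7292 CKO cells from 1 library each. Cr2 lies at 0.32 and Ighd at -0.23, while the bars of Cd93 and Cd9 span 0.

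Cr2 was at 210.2 CPM (197.8 to 223.1) in the WT library and 262.2 CPM (254.0 to 270.7) in the CKO library. The CKO over WT ratio was 1.248 (1.17 to 1.34), above 97.2% of the 5450 genes. Cr2 was found in 29.4% of WT cells (27.7 to 31.2%) and 35.3% of CKO cells (34.2 to 36.4%), and the excess lay at every UMI number above 0. Cells with 1 UMI were 20.8% of WT and 23.5% of CKO cells, those with 2 UMIs 5.77% and 8.06%, and those with 3 UMIs or more 2.88% (2.27 to 3.61%) and 3.65% (3.23 to 4.10%). T cells, which should lack the gene, had a Cr2 UMI in 0.389% (WT) and 0.665% (CKO) of cells at the same depth of 2000 UMIs. Over all gated T cells, shallower ones included, the raw medians were 6302 and 5725 UMIs. Before thinning, 47.3% of WT and 54.0% of CKO gated B cells had a Cr2 UMI.

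Cd55, the other complement gene, reached 677.1 CPM (654.7 to 699.9) in the WT library and 655.0 CPM (642.0 to 668.3) in the CKO library, which gave a ratio of 0.967 (0.931 to 1.01). It was found in 64.9% and 64.6% of cells. T cells carried Cd55 at 7.63% of the B cell level in WT and 5.88% in CKO. The counting interval of the Cd55 ratio thus included equality.

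Fcer2a reached 653.3 CPM (631.4 to 675.8) in the WT library and 659.5 CPM (646.4 to 672.8) in the CKO library, which gave a ratio of 1.01 (0.970 to 1.05). It was found in 64.9% of cells in both libraries. Cells with 5 UMIs or more were 3.04% of WT and 3.18% of CKO cells. Fcer2a was the member whose values lay closest together in the libraries.

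Ighd reached 1478 CPM (1445 to 1512) in the WT library and 1260 CPM (1242 to 1279) in the CKO library, which gave a ratio of 0.852 (0.830 to 0.876) above only 3.82% of the 5450 genes. Cells without an Ighd UMI were 11.5% of WT and 14.2% of CKO cells, and cells with 5 UMIs or more were 21.04% and 15.1%. Cells with 0, 1 or 2 Ighd UMIs were more frequent in CKO and cells with 3 or more less frequent. Ighm, the constant gene of IgM, reached 3036 CPM (2989 to 3084) in the WT library and 3240 CPM (3211 to 3269) in the CKO library, which gave a ratio of 1.07 (1.05 to 1.09). Of all Ighd and Ighm UMIs, 32.7% were Ighd in WT (32.1 to 33.4%) and 28.0% in CKO (27.7 to 28.3%). In cells with at least 5 UMIs of the pair, the median share of Ighd per cell was 33.3% in WT (quartiles 18.8 and 46.2%, 2250 cells) and 27.3% in CKO (15.4 and 40%, 6435 cells), so the quartiles of the libraries overlapped. Of these cells, Ighd was more than 50% of the pair in 17.1% in WT (15.6 to 18.7%) and 10.3% in CKO (9.57 to 11.1%), and it was at 0 in 7.29% (6.25 to 8.44%) and 11.03% (10.3 to 11.8%). Cr2 was lowest in the WT cells with Ighd at 0, at 146.3 CPM (107.9 to 194.0), against 202.5 to 237.1 CPM in the other WT classes, whereas it was between 243.7 and 269.4 CPM in every CKO class. These classes were chosen after the values had been seen.

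**Figure D2:**
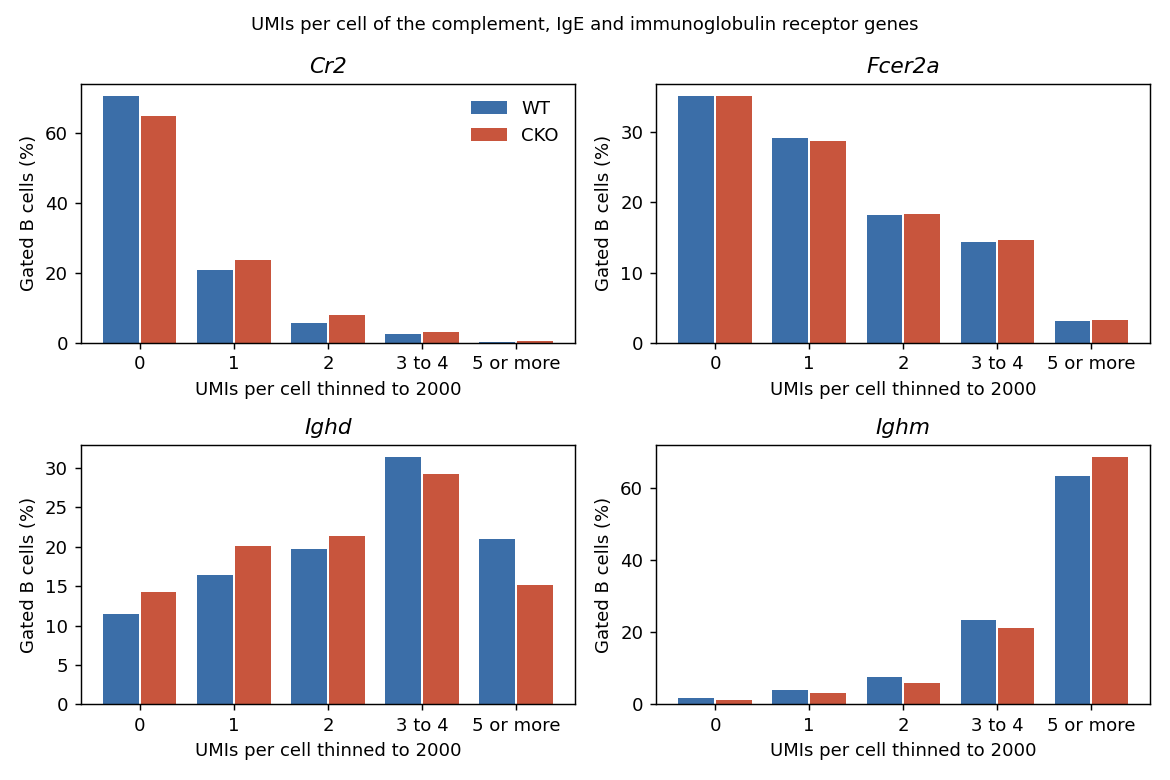
Share of gated B cells (vertical axis, %) by the number of UMIs of Cr2, Fcer2a, Ighd and Ighm per cell thinned to 2000 UMIs (horizontal axis), with WT in blue and CKO in red. Bars for Cr2 are shifted to more UMIs in CKO, bars for Ighd to fewer (15.1% of CKO against 21.04% of WT cells at 5 or more), and bars for Fcer2a nearly coincide.

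The BAFF receptor gene Tnfrsf13c reached 358.0 CPM (341.8 to 374.8) in the WT library and 371.8 CPM (362.0 to 381.9) in the CKO library, which gave a ratio of 1.04 (0.985 to 1.10), and was found in 47.3% of WT and 48.7% of CKO cells. T cells had it in 0.429% and 0.634% of cells. Tnfrsf13b, which binds BAFF and APRIL, reached 236.3 CPM (223.2 to 249.9) in the WT library and 253.2 CPM (245.1 to 261.5) in the CKO library, which gave a ratio of 1.07 (1.004 to 1.14). It was found in 36.2% of WT and 38.2% of CKO cells, and T cells reached 11.04% and 11.4% of the B cell level. At least 1 of the pair was found in 66.3% of WT cells (64.5 to 68.2%) and 68.1% of CKO cells (67.0 to 69.2%). Over 20 further random thinnings the Tnfrsf13b ratio ran from 0.9998 to 1.10, a range that reaches equality.

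Ebf1 reached 1326 CPM (1295 to 1358) in the WT library and 1279 CPM (1261 to 1298) in the CKO library, which gave a ratio of 0.965 (0.938 to 0.992), and was found in 88.2% and 88.7% of cells. Without thinning its log2 ratio was 0.0060, against -0.05 with thinning, so the direction of this small difference is not fixed. Cd93 had 42 UMIs in WT and 143 in CKO, that is 8.18 CPM (5.90 to 11.1) and 9.81 CPM (8.26 to 11.6), a ratio of 1.20 (0.844 to 1.73). It was found in 40 of 2567 WT cells (1.56%, 1.12 to 2.12%) and 138 of 7292 CKO cells (1.89%, 1.59 to 2.23%), against 0.0134% and 0.0317% of T cells. Cd9, which encodes a tetraspanin of marginal zone and B-1 cells, had 20 UMIs in WT and 84 in CKO, a ratio of 1.48 (0.900 to 2.54), and its ratio ran from 0.939 to 1.47 over the 20 further thinnings. It was found in 0.779% of WT and 1.12% of CKO gated B cells, but in 7.76% and 6.11% of T cells and 33.8% and 35.98% of natural killer cells. Cd93 and Cd9 were below the 20 CPM floor, and both intervals included equality. They did not in a few alternatives: the log2 ratio of Cd9 was 0.796 (0.093 to 1.57) with 1 Cd79a UMI in the gate and 0.699 (0.110 to 1.33) at 3000 UMIs, but -0.14 (-0.74 to 0.49) in another random thinning. That of Cd93 was 0.336 (0.0065 to 0.677) without thinning.

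**Figure D3:**
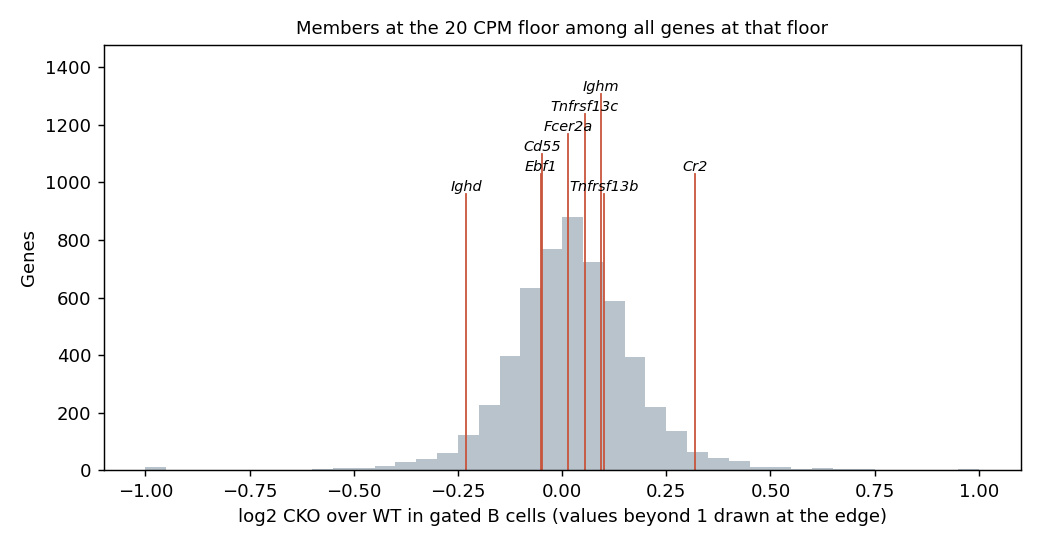
Number of genes (vertical axis) by log2 CKO over WT in gated B cells (horizontal axis) for the 5450 genes with a mean of at least 20 CPM. Lines mark the 8 members at that floor; Ighd (-0.23) and Cr2 (0.32) lie toward opposite ends, and the other 6 lie between -0.05 and 0.10.

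Other cell kinds carried the members at different levels relative to B cells. Ighd, Fcer2a, Ebf1 and Tnfrsf13c in T cells stood at 0.187 to 0.852% of their B cell level, and Igkc at 0.271% in WT and 0.618% in CKO. Ighm did not keep that ratio: T cells held it at 8.23% of the B cell level in WT and 6.51% in CKO, and 36.7% and 31.6% of T cells had an Ighm UMI. The 22 WT and 13 CKO plasma cells, gated on Jchain and other plasma cell genes, held 2068 and 25808 CPM of Ighm and 0 UMIs of Ighd. At these cell numbers a count of 0 allows a share of up to 13.6% and 23.1% of plasma cells with an Ighd UMI. An Ighm UMI was found in 7 of the 22 WT and 7 of the 13 CKO plasma cells, so the Ighm levels rest on few cells.

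The levels were next followed within cells of the same Ighd and Fcer2a detection. Both genes were found in 58.6% of WT and 56.9% of CKO cells, Ighd alone in 29.9% and 28.9%, Fcer2a alone in 6.23% and 7.995%, and neither in 5.22% (134 cells, 4.39 to 6.15%) and 6.23% (454 cells, 5.68 to 6.81%). Cr2 was higher in CKO in each of these classes, with ratios of 1.22 (1.12 to 1.33), 1.27 (1.12 to 1.45), 1.30 (0.990 to 1.74) and 1.505 (1.07 to 2.16). Ighd was lower in CKO within the cells that had it, at 0.886 (0.857 to 0.915) beside Fcer2a and 0.868 (0.828 to 0.910) without it. With the classes held at equal make-up, an alternative added after the values had been seen, the log2 ratio of Ighd was -0.18. Ighm stood at 1.04 (1.01 to 1.06), 1.04 (1.004 to 1.07), 1.13 (1.05 to 1.21) and 1.45 (1.35 to 1.57) in the same order. In the cells with neither gene that also had fewer than 3 UMIs of each of the switched, germinal centre and plasma cell lists, Ighm was at 3306 CPM (WT) against 3650 CPM (CKO).

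Members were found together nearly as often as the product of their single shares, which is the share that unlinked detection would give. The ratio cannot exceed the inverse of the larger single share, so a gene found in most cells keeps it low even where detection is linked. Ighd was found in 89.5% of WT cells with Ighm and 34.8% of those without, and in 86.0% and 62.8% of CKO cells. Only 1.79% of WT and 1.07% of CKO cells lacked Ighm. Fcer2a was found in 66.2% of WT cells with Ighd and 54.4% of those without, and in 66.3% and 56.2% of CKO cells. Of 45 pairs, 44 had a product of at least 5 cells in both libraries. Ighd and Fcer2a were found together 1.02 times as often as the product in both WT (0.987 to 1.05) and CKO (1.001 to 1.04). With Fcer2a, Cd55 was found at 1.06 times the product in WT (1.01 to 1.10) and 1.05 in CKO (1.02 to 1.08), and with Ighd at 1.04 (1.01 to 1.07) and 1.03 (1.01 to 1.05). Put as shares, Cd55 was found in 67.5% of WT cells with Ighd and 45.2% of those without, and in 66.3% and 54.1% of CKO cells. Cr2 and Tnfrsf13c were found together at 1.05 times the product in WT (0.951 to 1.15) and 1.08 in CKO (1.03 to 1.13). In CKO, Cr2 was found in 38.1% of cells with Tnfrsf13c and 32.6% of those without. These intervals take the product as known, although the single shares come from the same cells. Where a gene of the pair is found in many cells, they are too wide. An interval that includes equality therefore does not show unlinked detection.

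With Fcer2a, Cd9 was found at 0.925 times the product in WT (0.478 to 1.61, 12 cells) and 0.696 in CKO (0.490 to 0.958, 37 cells). The CKO factor was below 1 in all 14 alternatives, but its interval included 1 in some of them, with 0.814 (0.589 to 1.095) in another random thinning and 0.655 (0.367 to 1.08) at 1000 UMIs. With Cr2 it was 0.850 (0.276 to 1.98, 5 cells) and 0.692 (0.423 to 1.07, 20 cells), but another random thinning gave 1.08 for the latter, so no order can be read from Cd9 with Cr2. Cd93 with Fcer2a stood at 1.002 (0.656 to 1.46) and 1.02 (0.820 to 1.247), Cr2 with Fcer2a at 1.04 in both libraries, Cr2 with Ighm at 1.02 and 1.001, and Ighm with Ighd at 1.01 and 1.003. Tnfrsf13c and Tnfrsf13b, the BAFF receptors, were found together close to the product, at 1.001 (0.917 to 1.09) and 1.01 (0.961 to 1.06). Cells with Cr2 and Cd9 but no Fcer2a, a combination known from marginal zone cells, were chosen after the values had been seen. They were 0 of 2567 in WT (0 to 0.144%) and 12 of 7292 in CKO (0.165%, 0.0851 to 0.287%), with overlapping intervals.

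**Figure D4:**
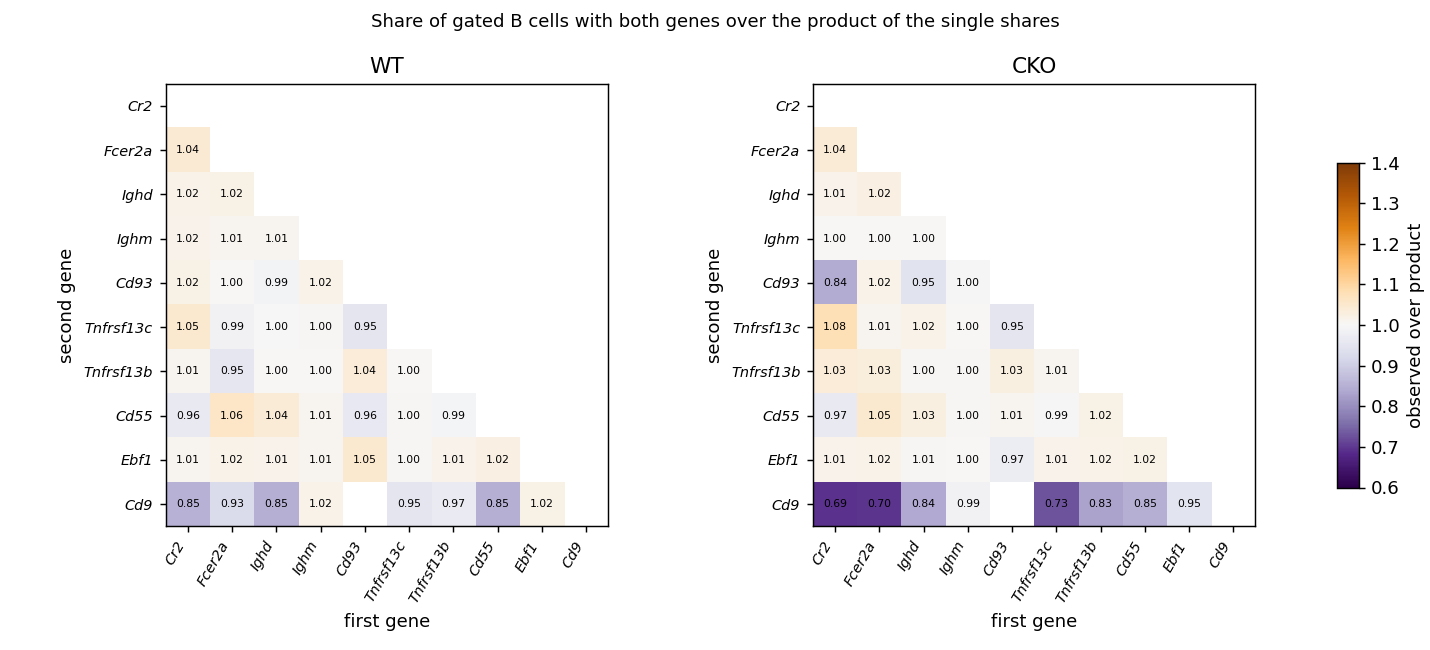
Share of gated B cells in which both genes of a pair were found, divided by the product of the single shares, for WT (left) and CKO (right), with columns for the first gene and rows for the second gene of the pair. Colour runs from purple (less often than the product) to orange (more often); Cd55 with Fcer2a stands at 1.06 and 1.05, the Cd9 row is mostly below 1, and the empty Cd9 and Cd93 cell had a product of under 5 cells.

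The cells without Ighd and Fcer2a were described apart. The product of the single negative shares was 4.02% in WT and 4.998% in CKO, against 5.22% and 6.23% observed. Of these cells, 38 of 134 in WT (28.4%) and 107 of 454 in CKO (23.6%) had no raw UMI of either gene. Over all gated cells before thinning, 42 of 2605 WT cells (1.61%, 1.16 to 2.17%) and 118 of 7414 CKO cells (1.59%, 1.32 to 1.90%) had none. The thinned share was 1.01 percentage points higher in CKO (-0.06 to 1.99), from 0.321 to 1.81 points over 20 further thinnings, and before thinning the difference was -0.02 points (-0.64 to 0.50). The negative cells were also deeper than the rest, with raw medians of 5691 UMIs in WT and 4975 in CKO against 3915 and 3833 in cells with both genes.

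Cd55 was the member with the largest shortfall in the cells without Ighd and Fcer2a. It stood at 287.3 CPM in these cells and 698.5 CPM in the other gated B cells of WT, a ratio of 0.411 (0.324 to 0.516), and at 407.5 and 671.5 CPM in CKO, which is a ratio of 0.607 (0.545 to 0.673). The WT value depends on the draw of UMIs: 20 further thinnings, added after this was noticed, gave 0.422 to 0.594 with a median of 0.490 in WT, so that the value above lies below all of them, and 0.527 to 0.693 in CKO. Ebf1 stood at 921.6 and 1348 CPM in WT, a ratio of 0.684 (0.600 to 0.776; 0.673 to 0.871 over the draws), and at 1129 and 1289 CPM in CKO, which is a ratio of 0.876 (0.821 to 0.932; 0.852 to 0.955). For Cr2 the ratio was 0.717 in WT (0.512 to 0.980; 0.529 to 0.943 over the draws) and 0.871 in CKO (0.754 to 1.001). Tnfrsf13c stood at 0.913 (0.728 to 1.13) and 0.891 (0.791 to 1.001), and Tnfrsf13b at 1.04 (0.802 to 1.34) and 0.931 (0.808 to 1.07). Differences of 1.5-fold were common in this comparison: 26.7% of 5417 genes in WT and 6.57% of 5480 genes in CKO reached it, 13.4% higher and 13.3% lower in WT and 3.52% higher and 3.05% lower in CKO. Of the 6 members above 20 CPM, Cd55 alone did so, in each library. Whether the ratio of Cd55 differs between the libraries was not tested.

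Ighm stood at 2881 CPM in the WT cells without Ighd and Fcer2a and 3045 CPM in the others, a ratio of 0.946 (0.879 to 1.02), and at 4189 and 3177 CPM in CKO, which is a ratio of 1.32 (1.28 to 1.36), with 1.21 to 1.31 over the further draws. In CKO, 634 of the 3804 Ighm UMIs came from 13 cells with at least 3 UMIs of the plasma cell genes. In WT only 82.8% of the cells without Ighd and Fcer2a had an Ighm UMI, against 95.2% in CKO. Cd9 was the member with the highest ratio, from few UMIs: 5 UMIs in WT (a ratio of 6.05, 1.72 to 17.5) and 19 in CKO (4.40, 2.49 to 7.43). The draws gave 0 to 4.82 in WT, all below that value, and 2.46 to 5.28 in CKO. Some transcripts of other cell types moved with Cd9 in CKO. The natural killer cell list was at 110.1 CPM in the cells without Ighd and Fcer2a and 36.6 CPM in the others (3.01, 2.40 to 3.73). The list of T cell markers not in the gate was at 83.7 and 57.4 CPM (1.46, 1.14 to 1.85). The wider list of 10 myeloid and dendritic cell markers was at 454.8 and 302.7 CPM, a smaller contrast. From it, Lyz2 and Fcer1g, picked after their values had been seen, stood at 18.8 (13.8 to 25.8) and 6.22 (4.15 to 9.17). These 2 genes rest on few cells: Lyz2 was found in 0.661% and Fcer1g in 3.30% of the cells without Ighd and Fcer2a. In WT the natural killer list was at 0.886 (0.104 to 3.41), the T cell list was at 1.35 (0.900 to 1.96), and Lyz2 had 0 UMIs in these cells. Natural killer cells carried Cd9 at 4088% of the B cell level in CKO, and T cells at 564%. Without cells with a UMI of Jchain, Lyz2, Ncr1 or Klrb1c, the log2 ratio of Cd9 was 1.89 in CKO (0.935 to 2.75), against 2.14 with them, and the part of other cells that lack these 4 genes was not tested. Cd93, with 2 and 12 UMIs, stood at 0.908 (0.106 to 3.50) and 1.38 (0.695 to 2.49).

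**Figure D5:**
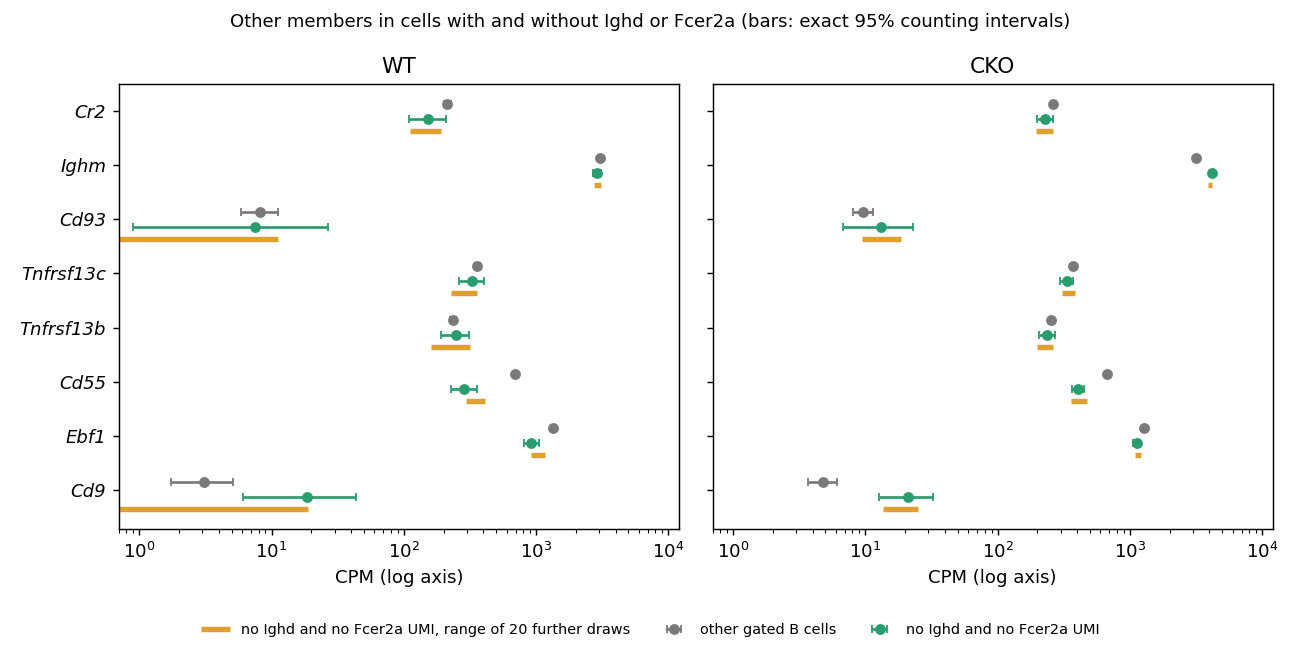
Level of the other 8 members, in CPM on a log axis, in gated B cells with an Ighd or Fcer2a UMI (grey) and without (green) in WT (left, 134 cells without) and CKO (right, 454 cells without). Bars are exact 95% counting intervals, and ochre lines give the range of the cells without over 20 further thinnings, drawn from 0.7 CPM where the lowest was 0; Cd55 lies lower without Ighd and Fcer2a in both libraries, and Cd9 in CKO lies higher.

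The make-up of the cells without Ighd and Fcer2a differed between the libraries in class-switched and plasma cell genes. At least 3 UMIs of the switched constant genes were found in 15.7% of these cells in WT (9.97 to 23.0%) against 1.98% in CKO (0.910 to 3.73%). The germinal centre genes gave 16.4% (10.6 to 23.8%) and 3.08% (1.70 to 5.12%), and the plasma cell genes 12.7% (7.57 to 19.5%) and 2.86% (1.53 to 4.85%). The 21 WT cells with switched genes held 1 Cd55 UMI and 8 Ebf1 UMIs between them, and the 22 WT cells with germinal centre genes held 0 Cd55 UMIs. Cells with none of the 3 lists were 73.1% of the class in WT and 93.4% in CKO. In these, Cd55 was at 387.8 CPM (WT) and 423.3 CPM (CKO), and Ebf1 at 1163 and 1112 CPM, against 287.3 and 407.5 CPM of Cd55 and 921.6 and 1129 CPM of Ebf1 in the whole class. Without the cells of the 3 lists the log2 ratio of cells without Ighd and Fcer2a over the others was -0.86 for Cd55 and 0.12 for Ighm in WT, and 0.20 for Ighm in CKO. The split at 3 UMIs was chosen after the values had been seen.

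The cells without any raw UMI of Ighd and Fcer2a also differed in switched genes between the libraries. Switched genes were found at 3 UMIs or more in 15 of 38 WT cells (39.5%, 24.0 to 56.6%) and 5 of 107 CKO cells (4.67%, 1.53 to 10.6%). The B-1 cell list reached 3 UMIs in 1 of 38 WT cells (2.63%, 0.0666 to 13.8%) and 17 of 107 CKO cells (15.9%, 9.54 to 24.2%), with overlapping intervals. The marginal zone list reached 3 UMIs in 22 of 38 WT cells (57.9%, 40.8 to 73.7%) and 69 of 107 CKO cells (64.5%, 54.6 to 73.5%). Gated B cells with a thinned UMI of Ighd or Fcer2a reached it too, in 26.7% (WT) and 29.4% (CKO). In the whole thinned class the B-1 list gave 5.97% in WT (2.61 to 11.4%) and 9.03% in CKO (6.56 to 12.1%), which overlapped as well. There the marginal zone list stood at 2.11 (1.93 to 2.31) in WT and 1.96 (1.86 to 2.06) in CKO, relative to the other gated B cells. Single genes carried much of this sum: Mzb1 held 1116 of 1985 CPM in WT, and Plac8 1250 of 1955 CPM in CKO. Genes of the list differed in direction. Notch2 stood at 0.823 (0.455 to 1.38) in WT and 0.853 (0.634 to 1.13) in CKO, and Dtx1 at 2.77 (1.59 to 4.57) and 1.57 (1.07 to 2.23). The list sum thus does not show marginal zone cells. In the cells without any raw UMI of either gene, Ebf1 was at 631.6 CPM (465.7 to 837.4) in the WT library and 1458 CPM (1301 to 1629) in the CKO library. Cd55 was at 210.5 (120.3 to 341.9) and 378.5 CPM (300.6 to 470.4) in the same cells. In the thinned class of 454 CKO cells, Bhlhe41, a transcription factor of B-1 cells, stood at 36.3 CPM against 10.7 CPM in the other gated B cells, a ratio of 3.40 (2.26 to 4.995), while the WT ratio was 1.55 (0.404 to 4.23) and so included equality. Ahr stood at 7.02 (4.72 to 10.3) and Fcrl5 at 5.99 (3.87 to 9.06) in CKO, and at 4.24 (1.57 to 9.84) and 5.78 (2.08 to 14.002) in WT. These 3 genes were picked after their values had been seen. Rag1, a recombinase gene of developing B cells that was below the 20 CPM floor and also picked after its values had been seen, had 12 of its 21 UMIs in the CKO cells without Ighd and Fcer2a and 0 UMIs in any WT gated B cell. It was found in 1.10% of those 454 CKO cells, so its UMIs rest on few cells, and the WT library had fewer gated B cells. Of the other low genes of the transitional list, Myb was at 2.48 (1.37 to 4.24) in the CKO cells without Ighd and Fcer2a relative to the others, Sox4 at 1.31 (0.832 to 1.97), and Vpreb1 had 1 of its 7 UMIs there.

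Interferon-responding cells differed in number between the libraries and in several members within them. Cells with a UMI of Ifit1, Ifit3, Rsad2 or Usp18 were 20.1% of WT and 26.5% of CKO cells. Cr2 stood at 163.4 CPM in such cells and 222.0 CPM in the others of WT, and at 201.1 and 284.2 CPM in CKO. Fcer2a followed, at 521.3 and 686.6 CPM in WT and 560.9 and 694.9 CPM in CKO. The CKO over WT ratio of Cr2 was 1.23 (1.04 to 1.46) among the interferon-responding cells and 1.28 (1.19 to 1.38) among the others, and that of Ighd 0.822 (0.776 to 0.871) and 0.862 (0.836 to 0.889). Cells with and without immediate early transcripts gave 1.27 (1.11 to 1.45) and 1.24 (1.14 to 1.34) for Cr2, so that Cr2 was higher in CKO with and without either state.

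A wider list held genes of the BAFF and APRIL pathway and survival genes. Of its 21 genes, 15 reached 20 CPM, and their median log2 ratio was 0.04, against 0.02 for all genes. The counting interval lay above equality for 3 of them and below it for 2. None was 1.5-fold apart, but only 0.752% of all 5450 genes were. A count of 0 is thus common to lists of this size, here and below, and is no result about them. Bcl2l11, which encodes the death-promoting protein BIM, stood at 1.14 (0.918 to 1.42), and Traf3, the adaptor that restrains signals from BAFF-R, at 1.13 (0.972 to 1.31). Pim1, a survival kinase, stood at 0.812 (0.712 to 0.929), and Chuk, a kinase of the NF-κB pathway, at 0.847 (0.735 to 0.979). Of the B cell receptor genes, 21 of 21 reached the floor and 0 were 1.5-fold apart. The highest was Pik3ap1, an adaptor that links receptor signals to PI3 kinase, at 1.28 (1.17 to 1.405). The adaptor Blnk stood at 1.19 (1.10 to 1.28), the tetraspanin gene Cd81 at 0.948 (0.869 to 1.03), and the exchange factor Vav1 at 0.980 (0.847 to 1.14). The median of that list was 0.06.

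Of the 19 B lineage transcription factors, all at the floor, 0 were 1.5-fold apart. Spi1 stood at 1.17 (1.06 to 1.30) and Tcf4 at 1.13 (1.06 to 1.21), while Tcf3, which encodes the E2A proteins, stood at 0.880 (0.777 to 0.997) and Bach2 at 0.956 (0.891 to 1.03). Among the 11 recirculation genes 0 were 1.5-fold apart, and the lowest was the chemokine receptor gene Cxcr4 at 0.723 (0.660 to 0.793). The adhesion gene Itga4 stood at 1.17 (1.10 to 1.249), Cxcr5, the receptor that guides B cells to follicles, at 1.12 (1.005 to 1.252), and Icam2 at 0.880 (0.785 to 0.988). Only 2 of 12 transitional genes reached the floor, Cd24a at 1.19 (1.11 to 1.27) and Vpreb3 at 1.02 (0.973 to 1.08). Of the 12 marginal zone genes 6 did, with Hes1 at 1.28 (1.04 to 1.59), Tm6sf1 at 1.22 (1.08 to 1.39), Mzb1 at 0.859 (0.812 to 0.909) and Dtx1 at 0.934 (0.765 to 1.15). Cr1l, the rodent homologue of the complement regulators, stood at 1.08 (0.986 to 1.18).

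Genes were also ranked by how alike they were to each member over single cells. Over the 4481 genes found in at least 5% of cells in both libraries, the likeness was Pearson's r of log counts within each library, ranked by the lower of the 2 values, over 2567 and 7292 cells that share their library and depth. Ighd went with the antigen presentation genes H2-Ab1 (0.170), H2-Aa (0.169) and Cd74 (0.147), and Fcer2a with H2-Aa (0.157), Cd74 (0.152) and H2-Ab1 (0.145). Cd55 went with Klf2 (0.152), which encodes a transcription factor of resting lymphocytes, and Fchsd2 (0.135). Ighm went with the receptor chains Cd79b (0.140) and Cd79a (0.131), Ebf1 with Cd79a (0.120) and Malat1 (0.116), and Cr2 with Cd52 (0.113). Tnfrsf13c and Tnfrsf13b reached 0.1 with no gene. Zfp318, whose product is needed for IgD expression and which was picked out after its value had been seen, stood 4th for Ighd at 0.136. In sparse counts these are descriptions only.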

How the data were processed

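Whole-number UMI counts per gene and barcode were deposited by the authors without normalization. Libraries were made with a 10x Genomics 3′ kit, per the labels' protocols. Cell Ranger is version 6.0.2 per the file headers but 5.0.0 per the submitters' processing notes, which also name Seurat 4.0.3 and mm10. Barcodes held at least 500 UMIs. Of the gene identifiers, 32235 of 32285 were found in GENCODE M21.

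Cells were required to have 500 UMIs, 200 genes and no more than 10% of UMIs from mitochondrial genes (Python 3.11.15, NumPy 2.4.6, SciPy 1.17.1). No doublets were removed; Scrublet scores (Scanpy 1.11.5) entered an alternative, at 0.8% per 1000 barcodes. Each gated cell was thinned to 2000 UMIs without replacement. CPM are UMIs over all thinned UMIs of the cells named, with exact Poisson intervals; shares have Clopper-Pearson and ratios exact conditional binomial intervals. PCR and UMI errors are not covered. Limits for a count of 0 use 3 cells. With 1 library per genotype no test was possible.

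The members and gene lists were chosen with earlier results of these data known. Besides members, the 2 highest and 2 lowest genes of a list at 20 CPM could be named, as could the 3 genes most like a member at r of at least 0.1. A gene that this rule names is not reported here. The interval and ratio code was tested on simulated counts with known ratios. Alternatives changed thinning, gate, filters, scaling and cell states.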

Additional observations from a re-analysis of the deposited data

How the results depend on the processing

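The log2 CKO over WT ratio of Cr2 stayed between 0.25 and 0.38 and that of Ighd between -0.25 and -0.18 over 17 alternatives each. Without thinning, the ratio was -0.19 for Ighd, 0.20 for Ighm, 0.025 for Cd55 and 0.0060 for Ebf1, which changed sign. With 1000 UMIs per cell it was 0.13 for Ighm and -0.11 for Cd55. Without the cells lacking Ighd and Fcer2a it was 0.061 for Ighm, and at equal make-up -0.18 for Ighd. Genes 1.5-fold apart were 41, against 70 without thinning, 66 at 1000 UMIs, 27 without the cells lacking Ighd and Fcer2a, 192 at a floor of 5 CPM and 2271 without a floor.

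The share lacking both genes was 2.76 points higher in CKO at 1000 UMIs and -0.02 points apart before thinning, where the definition by raw UMIs is the same calculation. For cells lacking both genes over the others, the log2 ratio of Cd55 in WT was -1.28, against -3.09 without thinning, -0.57 at 1000 UMIs, -0.66 with another random draw, -0.90 without cells with Jchain, Lyz2, Ncr1 or Klrb1c and -0.86 without plasma, switched and germinal centre cells. In CKO it was -0.72, against -0.99 without thinning, -0.37 at 1000 and -0.88 at 3000 UMIs. That of Ighm in WT was -0.08, against 0.039 without thinning and 0.038 without Jchain, Lyz2, Ncr1 or Klrb1c cells, 0.12 without plasma, switched and germinal centre cells and -0.22 without high doublet scores. In CKO it was 0.40, against 1.63 without thinning, 0.11 at 1000 and 0.58 at 3000 UMIs, 0.35 with another draw, 0.33 as the median of 20 draws, 0.35 with 1 Cd79a UMI, 0.50 without interferon-responding cells, 0.20 without Jchain, Lyz2, Ncr1 or Klrb1c cells and 0.20 without plasma, switched and germinal centre cells. The difference in cells with an Ighm UMI changed sign without the latter (-0.105 points). The cause of these shifts was not tested. The 20 draws, the equal make-up and the removal of plasma, switched and germinal centre cells were chosen after seeing the data. Detection shares were not recomputed under the scaling alternative, which leaves them as they are. No paired analysis was possible because each genotype had 1 library.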

Other observations

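Lists outside the maturation genes differed more. In gated B cells the 3 switched constant genes at 20 CPM were lower in CKO, with Igha at 278.0 CPM (WT) against 32.5 CPM (CKO), which gave a ratio of 0.117 (0.105 to 0.130), and Ighg2c at 0.127 (0.108 to 0.150). These transcripts lay mostly in the cells without Ighd and Fcer2a: in WT, Igha stood at 5123 CPM there and 11.1 CPM in the other gated B cells. Jchain stood at 0.212 (0.188 to 0.238) in CKO relative to WT, and Slpi at 0.011 (0.0044 to 0.023), from 223 UMIs in WT and 7 in CKO. Few cells carried these transcripts. Among the cells without Ighd and Fcer2a, Ighg2c was found in 2.99% of 134 in WT and 0.220% of 454 in CKO. Those cells held 550 of its 554 WT UMIs and 195 of its 200 CKO UMIs. Igha was found in 8.96% and 1.76% of the same class, and Slpi in 5.22% and 0.881%. Counting intervals take UMIs as independent, so they are too narrow for transcripts held by few cells. Of the 16 interferon-stimulated genes, 8 were at least 1.5-fold higher in CKO, with Ifitm3 at 1.98 (1.75 to 2.24), and Ifi208 was lower at 0.197 (0.163 to 0.238). The light chain constant genes Igkc and Iglc2 stood at 0.905 (0.896 to 0.914) and 1.11 (1.09 to 1.13). Cd83, an activation marker, stood at 0.663 (0.612 to 0.718) and Fos at 1.34 (1.23 to 1.45).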
